A study of Homo sapiens with 15 samples.

Results

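The 10 genes described here are receptors, transcription factors and a ligand by which ovarian granulosa cells are recognized or through which they answer hormones, and they were taken by symbol from a gene table of 37787 genes. They are FSHR, AMHR2, KITLG, GATA4, GATA6, WT1, NR2F2, ESR1, ESR2 and NR3C1. Granulosa cells surround the oocyte and turn pituitary and local signals into steroid production and follicle growth. Follicle-stimulating hormone acts on them through FSHR, anti-Müllerian hormone through AMHR2, estrogen through ESR1 and ESR2, and glucocorticoids through NR3C1, while KITLG is the ligand they present to the KIT receptor of the oocyte. GATA4, GATA6 and WT1 are transcription factors of the somatic gonad, and NR2F2 (COUP-TFII) is an orphan nuclear receptor best known in the ovary from theca and stromal cells.

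RNA was measured in HGrC1 cells, an immortalized, non-luteinized human granulosa line that carries normal FOXL2 alleles, taken at passage 14. The cells were lipofected for 4 h and then kept for 24 h without serum. Vectors received vectors for which the labels name no gene, FOXL2WT received SMAD3 with wild-type FOXL2, and FOXL2C134W received SMAD3 with the FOXL2 mutant of adult granulosa cell tumors. FOXL2WT + FOXO1 and FOXL2C134W + FOXO1 received the same pairs plus FOXO1-3A, a FOXO1 mutant that stays active in the nucleus. All 5 conditions therefore share the line, the endogenous FOXL2 and the lipofection, and the plasmids drive expression transiently. Each condition had 3 libraries, lettered A, B and C, with totals from 14962245 to 25339094 estimated counts. The sources call them samples of 1 line without naming separate transfections, so p-values measure the spread between these samples.

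The libraries carried the transfected genes that their labels name. FOXL2 averaged 8.73 CPM (counts scaled to a common library total) in Vectors, 560 in FOXL2WT, 147 in FOXL2C134W, 384 in FOXL2WT + FOXO1 and 152 in FOXL2C134W + FOXO1. SMAD3 averaged 249, 2767, 843, 969 and 392 CPM in the same order, and FOXO1 averaged 13.1, 12.2, 11.98, 117 and 43.2 CPM. At the RNA level the conditions thus differ in the amount of FOXL2 and SMAD3 as well as in the FOXL2 form. The conditions with FOXO1 also differ from each other in the amount of FOXO1. These differences cannot be told apart in these libraries. The study examined the transfected proteins separately, and protein levels were not analysed here. Of 14 granulosa markers, 9 had at least 10 counts in every library (FOXL2, NR5A1, AMH, INHBA, FST, HSD17B1, GATA4, WT1 and KITLG), whereas INHA and CYP19A1 stayed at 0 to 4 counts and FSHR at 0. Keratins that also mark ovarian surface epithelium were abundant, with KRT8 at 39772 to 70992 counts, and 7 of 8 epithelial markers had at least 10 counts in every library. Of 10 theca and stroma markers, 3 had at least 10 counts in every library, namely NR2F2 itself (3262 to 6629 counts), PDGFRB (482 to 1020) and PDGFRA (14 to 35), whereas CYP17A1, LHCGR and INSL3 had at most 3.

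A first question is which of the 10 genes these cells express. A gene was placed at the floor where no library exceeded 3 counts, the upper limit that a count of 0 allows, which equals 0.118 to 0.201 CPM at these depths and covers counting error only. It was placed near the floor where it failed the edgeR expression filter or had under 10 counts in a library. FSHR, ESR1 and ESR2 were at the floor, AMHR2 was near it, and KITLG, GATA4, GATA6, WT1, NR2F2 and NR3C1 were above it in all 15 libraries. Only these 6 entered the tests.

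FSHR, the receptor that defines gonadotropin-responsive granulosa cells, had 0 counts in all 15 libraries. Its 5 annotated transcripts had 0 reads as well, so FSHR was not detectable at this depth. ESR1, the alpha estrogen receptor, summed to 12 counts over all libraries, with 0 in 9 of them. Its counts for replicates A, B and C were 0, 0 and 0 in Vectors, 0, 1 and 0 in FOXL2WT, and 3, 2 and 0 in FOXL2C134W. With FOXO1 they were 1, 0 and 0 in FOXL2WT + FOXO1 and 3, 2 and 0 in FOXL2C134W + FOXO1. No order of the conditions can be read from such counts. ESR2, the beta estrogen receptor that prevails in granulosa cells of the ovary, summed to 18 counts, with at most 3 in a library and 0 in 5 libraries.

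AMHR2, the type II receptor that binds anti-Müllerian hormone, summed to 56 counts. Replicates A, B and C held 7, 7 and 6 counts in Vectors, 3, 2 and 1 in FOXL2WT, and 0, 4 and 4 in FOXL2C134W. They held 5, 3 and 4 counts in FOXL2WT + FOXO1 and 3, 4 and 3 in FOXL2C134W + FOXO1. The Vectors libraries had the highest counts, but in CPM the 0.240 of Vectors C lay below the 0.336 of FOXL2WT + FOXO1 A, so the groups overlapped. When the filter was lowered to 1 count in any library, the log2 fold change of AMHR2 against Vectors was -1.41 (SE 0.876, edgeR adjusted p = 0.505) in FOXL2WT and -1.32 (SE 0.832, adjusted p = 0.435) in FOXL2C134W. Neither passed the test, and with these standard errors changes of this size in AMHR2 were not detectable at this depth.

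**Figure D1:**
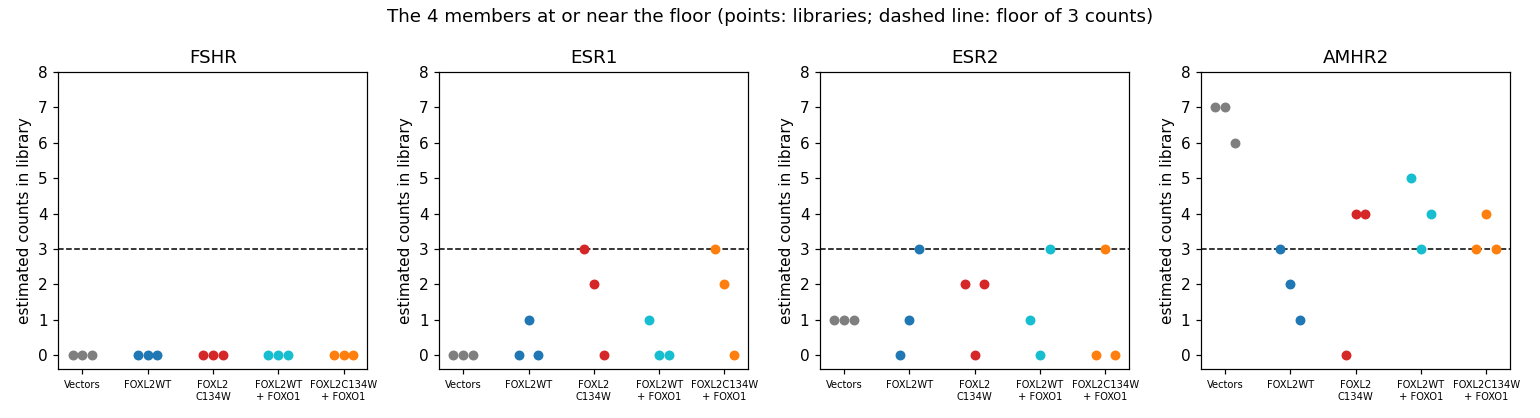
Estimated counts of FSHR, ESR1, ESR2 and AMHR2 in each of the 15 libraries by condition, with a dashed line at the floor of 3 counts. FSHR lies at 0 throughout, and ESR1 and ESR2 never pass the line. AMHR2 passes it in all 3 Vectors libraries and in some libraries of every other condition except FOXL2WT, and reaches at most 7 counts.

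Levels of different genes were compared in TPM, which the authors scaled by transcript length. Over the 15 libraries NR2F2 averaged 109 TPM, GATA4 80.01 TPM, WT1 56.5 TPM, NR3C1 47.4 TPM, KITLG 8.07 TPM and GATA6 5.25 TPM. AMHR2 averaged 0.197 TPM, ESR2 0.0192 TPM and ESR1 0.00709 TPM. The ranges of NR2F2 (91.8 to 137 TPM) and GATA4 (71.1 to 93.2 TPM) overlapped over the libraries, and those of KITLG (6.96 to 9.33 TPM) and GATA6 (4.91 to 5.66 TPM) did not. WT1 ranged from 23.4 to 114 TPM, and WT1-215, a retained-intron transcript of 233 bases with at most 24.9 reads, supplied 0 to 74.0% of it. With 1 fixed length for the gene, WT1 averaged 44.2, below the 48.9 of NR3C1. Among the hormone receptors of the list, NR3C1 was therefore the only receptor for a known hormone above the floor.

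The starts of NR2F2 and KITLG, the members called in the test over all conditions, are shown with those of GATA6, a member called in no comparison, and FSHR, which was not detected. Each sequence is the 250 bases before an annotated start (hg38 genome, GENCODE 44), written 5′ to 3′ on the strand of the gene. Capitals mark matches on either strand to the forkhead motif TAAACA, the SMAD motif CAGAC, the GATA motif AGATAA or the nuclear receptor motif AGGTCA. In NR2F2 the start of transcript NR2F2-203 is preceded by chr15:96325688-96325937 and that of NR2F2-201 by chr15:96330450-96330699, both on the plus strand. The outermost start of KITLG is preceded by chr12:88580852-88581101 on the minus strand, that of GATA6 by chr18:22169339-22169588 on the plus strand, and that of FSHR by chr2:49154528-49154777 on the minus strand.
NR2F2-203: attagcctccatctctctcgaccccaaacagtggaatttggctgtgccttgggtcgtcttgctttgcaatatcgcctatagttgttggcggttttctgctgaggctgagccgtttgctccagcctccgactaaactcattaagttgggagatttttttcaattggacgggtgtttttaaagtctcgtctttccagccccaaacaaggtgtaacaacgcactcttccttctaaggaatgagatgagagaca
NR2F2-201: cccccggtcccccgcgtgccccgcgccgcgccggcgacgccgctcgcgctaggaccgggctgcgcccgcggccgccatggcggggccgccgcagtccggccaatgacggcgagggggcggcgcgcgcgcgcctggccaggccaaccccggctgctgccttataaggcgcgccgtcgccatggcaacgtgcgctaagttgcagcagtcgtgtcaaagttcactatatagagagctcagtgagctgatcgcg
KITLG: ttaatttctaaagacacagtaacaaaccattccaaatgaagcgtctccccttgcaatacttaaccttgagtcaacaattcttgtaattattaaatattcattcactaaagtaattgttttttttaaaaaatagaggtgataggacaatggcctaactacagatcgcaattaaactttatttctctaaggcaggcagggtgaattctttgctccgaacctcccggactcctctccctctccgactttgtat
GATA6: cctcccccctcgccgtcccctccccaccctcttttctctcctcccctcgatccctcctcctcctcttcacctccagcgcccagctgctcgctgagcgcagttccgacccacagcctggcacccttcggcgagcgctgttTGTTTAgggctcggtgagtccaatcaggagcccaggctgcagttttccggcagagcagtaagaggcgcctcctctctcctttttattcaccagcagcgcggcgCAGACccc
FSHR: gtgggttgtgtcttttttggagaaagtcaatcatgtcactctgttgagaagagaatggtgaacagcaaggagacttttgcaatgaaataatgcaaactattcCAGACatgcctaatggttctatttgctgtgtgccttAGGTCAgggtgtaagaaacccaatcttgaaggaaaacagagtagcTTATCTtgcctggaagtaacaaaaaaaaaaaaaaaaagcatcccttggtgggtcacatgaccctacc

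Neither NR2F2 window and not the KITLG window held any of the 4 motifs. GATA6 held the forkhead motif on the opposite strand and the SMAD motif, and its window overlaps an exon of GATA6-AS1. FSHR held the SMAD motif, the nuclear receptor motif and, on the opposite strand, the GATA motif. No window was taken for GATA4. Of the windows not printed, those of WT1, called in no comparison, and AMHR2 also held none of the 4 motifs. Those of ESR1, ESR2 and NR3C1 held the SMAD motif alone. The NR3C1 window precedes the start of NR3C1-202, which held 0.016% of the TPM of NR3C1 on average. A background was taken from the 250 bases before 20046 canonical starts of protein-coding genes. Among these the forkhead motif was present in 7.4%, the SMAD motif in 35.9%, the GATA motif in 6.54% and the nuclear receptor motif in 9.97%. The absence of these letters says nothing on binding elsewhere. The windows also differed in base composition. That of NR2F2-201 had 73.6% GC and 40 CpG dinucleotides and that of FSHR 40.4% GC and 0 CpG. The medians over the 20046 canonical starts were 63.2% GC and 18 CpG. KITLG (36.4% GC, 5 CpG) and NR2F2-203 (46.8% GC, 9 CpG) had less GC and fewer CpG than those medians. The printed windows of KITLG, GATA6 and FSHR precede outermost starts, which need not be canonical. Those starts belong to KITLG-201 (12.2% of the TPM of KITLG on average), GATA6-201 and FSHR-203, a transcript annotated for nonsense-mediated decay.

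Conditions were compared next in CPM, in which the length of a gene plays no part. NR2F2, on chromosome 15 from 96325938 to 96340263 (GRCh38), was higher with the FOXL2 mutant. Its level was 221, 212 and 215 CPM in replicates A, B and C of Vectors and 244, 219 and 219.9 CPM in FOXL2WT. It was 259, 277 and 272 CPM in FOXL2C134W, above all libraries without the mutant. With FOXO1 it was 225, 235 and 241 CPM in FOXL2WT + FOXO1 and 243, 259.8 and 249.6 CPM in FOXL2C134W + FOXO1. The lowest value with the mutant and FOXO1 (243 CPM) fell just under the highest in FOXL2WT (244 CPM), so only these conditions overlapped across the FOXL2 forms.

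NR2F2 rose 1.25-fold in FOXL2C134W against Vectors (log2 fold change 0.32, SE 0.046, edgeR adjusted p = 0.00013) and 1.18-fold against FOXL2WT (0.24, SE 0.046, adjusted p = 0.0022). It also rose in FOXL2C134W + FOXO1 against Vectors (0.22, SE 0.046, adjusted p = 0.0051) and in FOXL2C134W against FOXL2WT + FOXO1 (0.20, SE 0.046, adjusted p = 0.021). The first 3 of these calls held without any library in turn and in all 7 other settings. The last was lost without FOXL2C134W B (0.19, adjusted p = 0.10), FOXL2C134W C (0.20, adjusted p = 0.084) or FOXL2WT + FOXO1 A (0.18, adjusted p = 0.083). FOXL2WT differed from Vectors by 0.08 (adjusted p = 0.37), which did not pass the test. In order of level FOXL2C134W stood first, then FOXL2C134W + FOXO1, FOXL2WT + FOXO1, FOXL2WT and Vectors, and no pair of neighbours in that order differed by the test (adjusted p from 0.34 to 0.86). The bulk RNA does not tell whether more cells held NR2F2 or each cell held more. The other 9 theca and stroma markers, without NR2F2, summed to 37.1 to 44.4 CPM in Vectors and 37.0 to 39.1 CPM in FOXL2C134W. PDGFRB held most of that sum, with 482 to 1020 counts beside 14 to 35 for PDGFRA and at most 11 for any other. The sum therefore describes mainly PDGFRB.

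KITLG, on the minus strand of chromosome 12 from 88492793 to 88580851, moved the other way. The stem cell factor that it encodes is made by granulosa cells and signals to the KIT receptor. KITLG stood at 36.3, 39.9 and 38.1 CPM in Vectors, 36.0, 36.8 and 34.6 CPM in FOXL2WT, and 31.8, 31.7 and 29.98 CPM in FOXL2C134W. All FOXL2C134W libraries were below all libraries of Vectors and FOXL2WT. With FOXO1 the values were 34.2, 34.2 and 39.1 CPM in FOXL2WT + FOXO1 and 34.1, 31.1 and 34.8 CPM in FOXL2C134W + FOXO1. KITLG fell in FOXL2C134W to 0.82 of its level in Vectors (log2 fold change -0.29, SE 0.063, edgeR adjusted p = 0.0046). Against FOXL2WT the difference was -0.20 (SE 0.065, adjusted p = 0.057), against FOXL2WT + FOXO1 -0.20 (SE 0.065, adjusted p = 0.082), and in FOXL2C134W + FOXO1 against Vectors -0.19 (SE 0.063, adjusted p = 0.064), and none of these passed.

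The call on KITLG held without any library in turn but not in DESeq2 with transcript length offsets (-0.22, adjusted p = 0.13). These offsets follow the mean transcript length of a gene in each library. Transcript KITLG-205 supplied 88.1% ± 4.2 (SD, n = 3) of the TPM of KITLG in Vectors, 82.2% ± 11.4 in FOXL2WT, 73.8% ± 20.3 in FOXL2C134W, 61.4% ± 25.96 in FOXL2WT + FOXO1 and 62.6% ± 10.0 in FOXL2C134W + FOXO1. Its part in the lost call was not tested. The receptor KIT itself had 0 to 16 counts in a library.

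GATA4, on chromosome 8 from 11676959 to 11760002, was lowest in FOXL2WT. It was measured at 154, 144 and 148 CPM in Vectors and at 129, 131 and 138 CPM in FOXL2WT. In FOXL2C134W it was at 141, 150.0 and 147 CPM, in FOXL2WT + FOXO1 at 137, 149 and 139.8 CPM, and in FOXL2C134W + FOXO1 at 135, 144 and 135 CPM. FOXL2WT did not overlap with Vectors or FOXL2C134W, and it overlapped with both FOXO1 conditions. GATA4 fell in FOXL2WT to 0.89 of Vectors (log2 fold change -0.16, SE 0.045, edgeR adjusted p = 0.037). This call was lost without Vectors A (-0.14, adjusted p = 0.20), Vectors C (-0.17, adjusted p = 0.096), FOXL2WT A (-0.15, adjusted p = 0.15) or FOXL2WT B (-0.16, adjusted p = 0.14), and it held in the 7 other settings, with the value at -0.26 (adjusted p = 0.0032) with length offsets in DESeq2. With the same offsets GATA4 was also called in FOXL2C134W + FOXO1 against Vectors (-0.22, adjusted p = 0.013), where edgeR gave -0.11 (adjusted p = 0.15). FOXL2C134W exceeded FOXL2WT by 0.14 (SE 0.045, adjusted p = 0.057), which did not pass, whereas DESeq2 called it (0.14, adjusted p = 0.023). Transcript GATA4-201 supplied 13.5% ± 3.2 (SD, n = 3) of its TPM in Vectors, 21.8% ± 4.1 in FOXL2WT, 16.8% ± 4.1 in FOXL2C134W, 17.1% ± 5.2 in FOXL2WT + FOXO1 and 24.6% ± 2.9 in FOXL2C134W + FOXO1, with no test made.

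GATA6, WT1 and NR3C1 passed the test in no comparison. With length offsets in DESeq2 the values of WT1 went from -0.09 to -1.33 (SE 0.60, adjusted p = 0.26) in FOXL2WT against Vectors and from 0.08 to 1.43 (SE 0.60, adjusted p = 0.15) in FOXL2C134W against FOXL2WT, still short of the threshold. The mean transcript length of WT1 that these offsets use was 1886 ± 254 bases (SD, n = 3) in FOXL2WT, 760 ± 145 bases in FOXL2C134W and 948 ± 500.3 bases in Vectors, and its part in these values was not tested. GATA6, the other GATA factor of granulosa cells, ranged from 14.2 to 16.1 CPM over the 15 libraries. WT1, the Wilms tumor factor of the early gonad, ranged from 38.7 to 47.6 CPM. NR3C1, the glucocorticoid receptor, was at 232, 229.7 and 234 CPM in Vectors, 220.4, 225 and 224 CPM in FOXL2WT, and 207, 226 and 209.8 CPM in FOXL2C134W. All Vectors libraries lay above both of these conditions, and the difference of FOXL2C134W from Vectors was -0.11 (95% interval -0.21 to -0.01, edgeR adjusted p = 0.12). For WT1 in the same comparison the interval ran from -0.14 to 0.12 and for GATA6 from -0.21 to 0.06, which bounds a change at this depth but does not show equal levels. WT1 lies beside the antisense gene WT1-AS and GATA6 beside GATA6-AS1. The libraries keep strand, and the strand setting of the counting is not given in the sources used here.

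**Figure D2:**
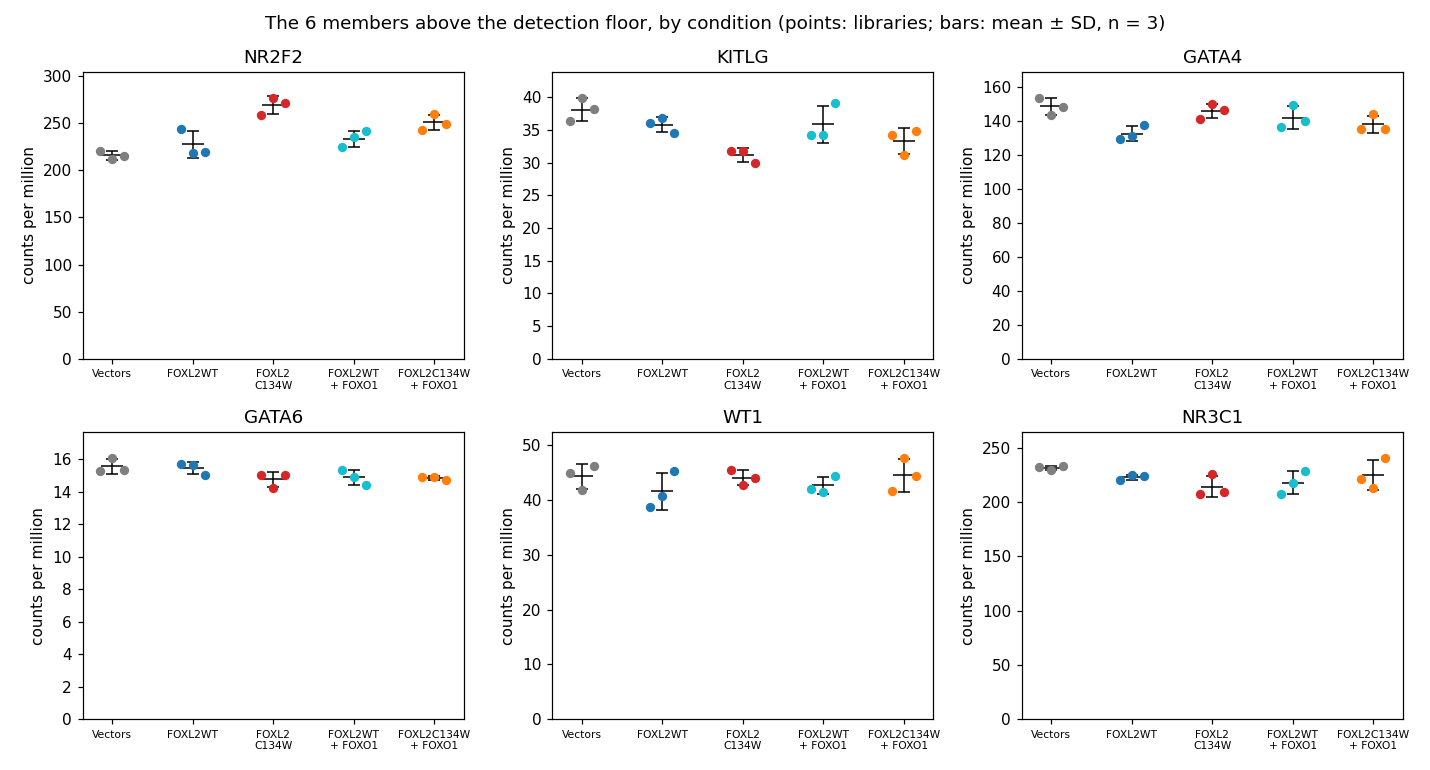
CPM of the 6 members above the floor, with a point for each library and bars for mean ± SD (n = 3) in each condition. NR2F2 is highest in FOXL2C134W (259 to 277 CPM), KITLG is lowest there (29.98 to 31.8 CPM), and GATA4 is lowest in FOXL2WT (129 to 138 CPM).

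Counts of called members were set beside the share of all 13868 tested genes called in the same comparison. FOXL2WT against Vectors called 0 of 6 members higher and 1 lower, where 6.07% of genes were called, 2.46% higher and 3.61% lower. FOXL2C134W against Vectors called 1 higher and 1 lower, where 14.7% were called, 7.48% higher and 7.24% lower. FOXL2C134W against FOXL2WT called 1 higher and 0 lower, where 11.2% were called, 7.13% higher and 4.12% lower. The replicates of the compared conditions did not overlap in 2 of 6 members in FOXL2WT against Vectors (31.1% of all genes), 4 in FOXL2C134W against Vectors (31.8%), 3 in FOXL2C134W + FOXO1 against Vectors (28.4%) and 4 in FOXL2C134W against FOXL2WT (30.4%). FOXL2C134W + FOXO1 against Vectors called 1 of 6 (9.33%) and FOXL2C134W against FOXL2WT + FOXO1 1 of 6 (3.87%). With so few members these shares are not a result on the list, and the comparisons with Vectors share its 3 libraries. The median log2 fold change of the 6 members was -0.05 in FOXL2C134W against Vectors and 0.01 against FOXL2WT, beside 0.0043 and -0.01 over all genes. A test for any difference among the 5 conditions called NR2F2 (edgeR adjusted p = 0.00069) and KITLG (adjusted p = 0.025), where 16.4% of genes were called. It did not call GATA4 (adjusted p = 0.072, and 0.021 in DESeq2), NR3C1 (0.36), WT1 (0.67) or GATA6 (0.78). KITLG lost that call without Vectors B (adjusted p = 0.075), Vectors C (0.071), FOXL2C134W B (0.066) or FOXL2C134W C (0.085).

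**Figure D3:**
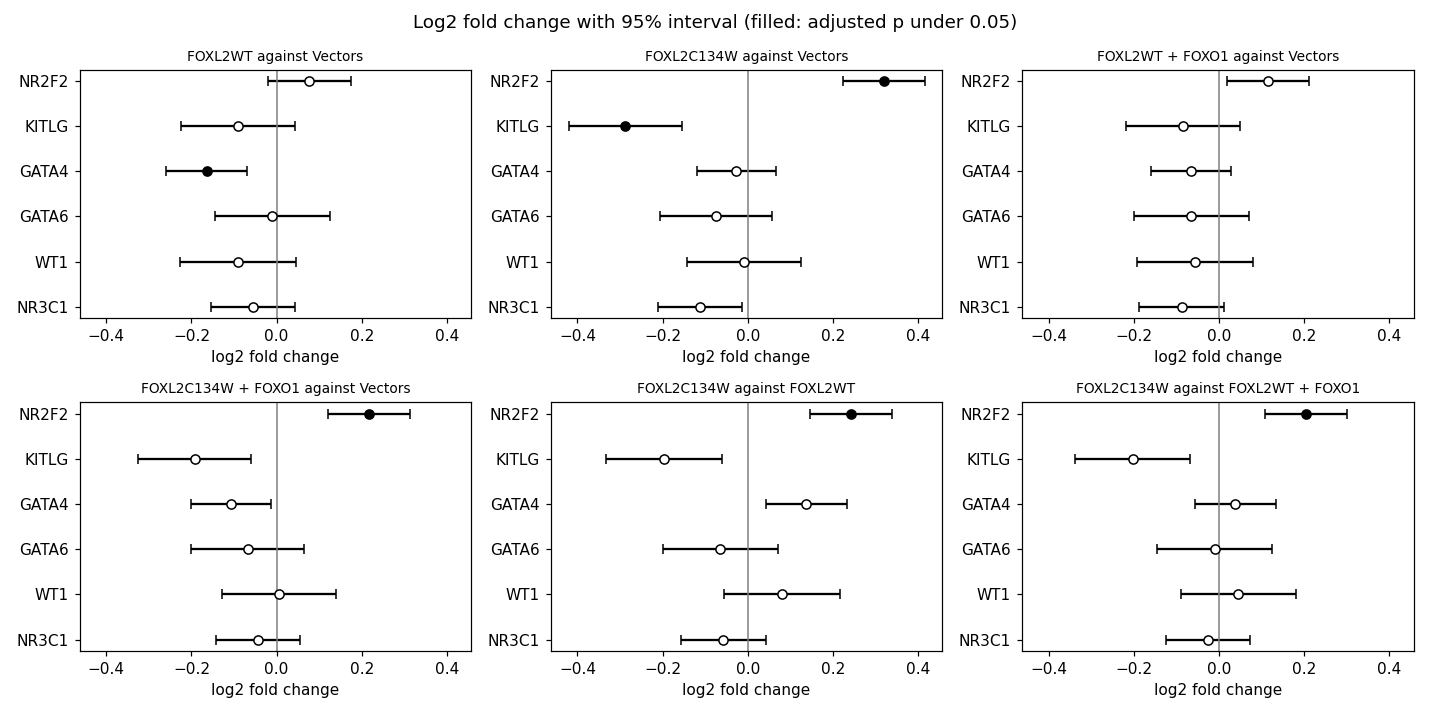
Log2 fold change (x axis) of the 6 members above the floor in 6 comparisons, with bars for the 95% interval and filled points where the edgeR adjusted p was under 0.05. NR2F2 is filled to the right of 0 in the 4 comparisons drawn here that hold FOXL2C134W or FOXL2C134W + FOXO1. KITLG is filled to the left in FOXL2C134W against Vectors, and GATA4 in FOXL2WT against Vectors. The pairwise comparisons not drawn, which include FOXL2C134W + FOXO1 against FOXL2WT and against FOXL2WT + FOXO1, called none of these members by edgeR.

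Whether active FOXO1 altered these genes was asked in each FOXL2 background. SMAD3 RNA was also lower with FOXO1, at 969 against 2767 CPM with the wild type and 392 against 843 CPM with the mutant. FOXL2 RNA was at 384 against 560 CPM with the wild type and 152 against 147 CPM with the mutant. FOXO1 RNA reached 117 CPM in FOXL2WT + FOXO1 and 43.2 CPM in FOXL2C134W + FOXO1. An effect of FOXO1 cannot be told apart from these differences. Adding FOXO1 to FOXL2WT called 0 of 6 members by edgeR (0.0505% of all genes) and 0 by DESeq2, and 1 member, GATA4 at 0.10 (adjusted p = 0.53), had an unadjusted p under 0.05. Adding it to FOXL2C134W also called 0 of 6 by both tools (0.714% of all genes). Here NR2F2 was the member with an unadjusted p under 0.05, with a difference of -0.10 (95% interval -0.20 to -0.01, adjusted p = 0.41). KITLG differed by 0.10 in the mutant background (95% interval -0.04 to 0.23, adjusted p = 0.64) and by 0.01 in the wild-type background (-0.13 to 0.14, adjusted p = 0.99). The interaction, the effect of FOXO1 with the mutant minus its effect with the wild type, called 0 of 6 by edgeR and 0 by DESeq2 (1.38% of all genes). GATA4 at -0.18 (adjusted p = 0.21) and NR2F2 at -0.14 (adjusted p = 0.39) had unadjusted p under 0.05, and GATA4 was called at -0.35 (adjusted p = 0.016) in DESeq2 with transcript length offsets.

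The remaining comparisons also called 0 of 6 by edgeR. These were FOXL2WT + FOXO1 against Vectors (3.78% of all genes, 1 member with unadjusted p under 0.05), FOXL2C134W + FOXO1 against FOXL2WT + FOXO1 (0.144%, 1 member) and FOXL2C134W + FOXO1 against FOXL2WT (1.69%, 1 member). The member was NR2F2 each time, at 0.11 (adjusted p = 0.20), 0.10 (adjusted p = 0.34) and 0.14 (adjusted p = 0.11). DESeq2 called NR2F2 in the last of these (0.15, adjusted p = 0.041) and no member in the other two.

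The transcript tables were used to see which transcripts of a member carried its level. NR2F2-203, which starts at the 5′ end of the locus, supplied 76.7% ± 0.6 (SD, n = 3) of the TPM of NR2F2 in Vectors and 70.1% ± 8.3 in FOXL2C134W, and NR2F2-201, which starts further downstream, supplied 22.8% ± 0.3 and 22.0% ± 2.3. The share of NR2F2-203 in FOXL2C134W spanned 60.7% to 76.2%, with the lowest value in replicate A. NR3C1-203 supplied 69.7% ± 0.3 of NR3C1 in Vectors and 61.8% ± 2.6 in FOXL2WT + FOXO1. GATA6-201 supplied 92.5% ± 3.3 of GATA6 in Vectors and 81.0% ± 1.9 in FOXL2C134W + FOXO1. These shares are salmon estimates between overlapping transcripts, and no test was made on them.

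**Figure D4:**
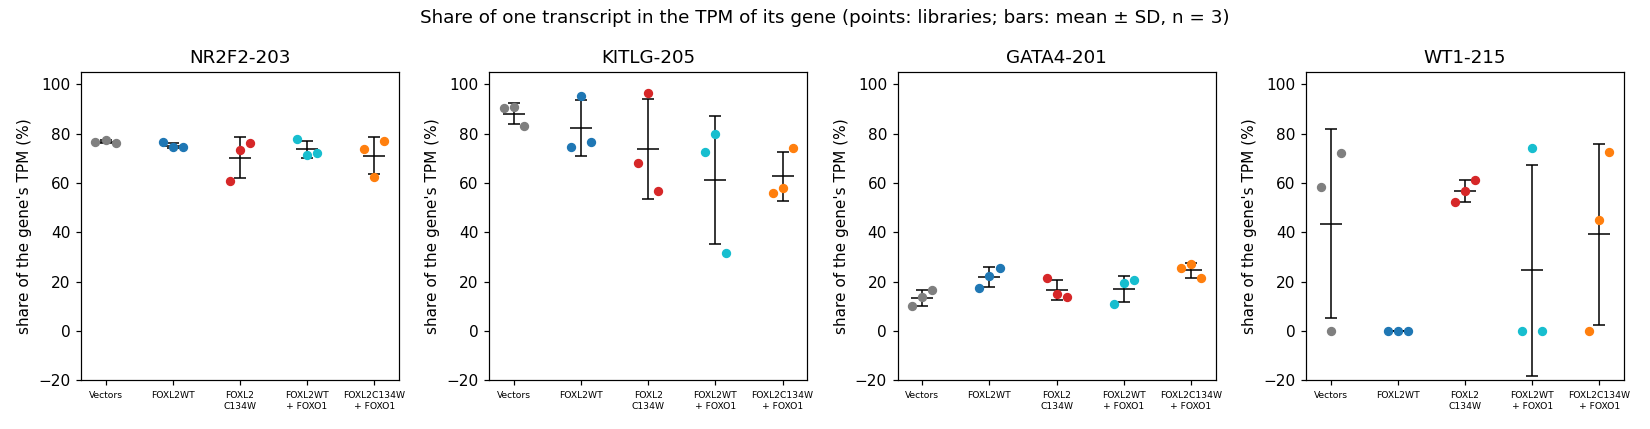
Share of the TPM of a gene held by NR2F2-203, KITLG-205, GATA4-201 and WT1-215 in each library, with bars for mean ± SD (n = 3). NR2F2-203 stays between 60.7% and 77.7%, whereas WT1-215 is at 0 in the 3 FOXL2WT libraries, at 52.5% to 61.4% in FOXL2C134W and at up to 74.0% in another library.

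Over the 15 libraries, the log2 CPM of NR2F2 and KITLG ran in opposite directions (Pearson r = -0.79), and that of GATA6 ran against NR2F2 (r = -0.66) and that of NR3C1 with KITLG (r = 0.65). GATA4 and WT1 had r = 0.50. These 15 points share 5 conditions and the library scaling, so the values describe this design only. Among 11594 genes with at least 50 counts on average, the closest to NR2F2 were AFAP1 (r = 0.95) and PABPC4 (r = 0.94), and the closest to KITLG were TSTD3 (r = 0.95) and BCL10 (r = 0.91).

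Genes that work with the members were examined as lists. Of 30 ligands, partners and cofactors, 26 were tested. FOXL2C134W against Vectors called 2 higher and 2 lower, or 15.4% of the list beside 14.7% of all genes. FOXL2C134W against FOXL2WT called 3 higher and 1 lower, or 15.4% beside 11.2%. FOXL2WT against Vectors called 2 higher and 1 lower, or 11.5% beside 6.07%. These counts are too small to set the list apart from all genes. NCOR1, a corepressor that nuclear receptors recruit, was at 87.6 ± 1.8 CPM (SD, n = 3) in FOXL2WT and 128 ± 19 CPM in FOXL2C134W (log2 fold change 0.54, SE 0.089, edgeR adjusted p = 0.00075). The chaperone HSP90AA1, which holds steroid receptors ready to bind, was higher in the same comparison at 0.20 (adjusted p = 0.045), a call lost without FOXL2WT A (adjusted p = 0.13), FOXL2WT B (0.17), FOXL2C134W B (0.15) or FOXL2C134W C (0.17). The WT1-associated protein WTAP was lower at -0.19 (adjusted p = 0.0086), lost without FOXL2WT B (adjusted p = 0.050), and both were named after their values were seen. Against Vectors, HSD11B1, which regenerates active glucocorticoid inside cells, fell from 1.86 ± 0.022 to 0.712 ± 0.17 CPM in FOXL2C134W (-1.37, SE 0.27, adjusted p = 0.0019). NR2F6, a relative of NR2F2, was at 28.1 ± 2.1 CPM in Vectors and 36.7 ± 0.28 CPM in FOXL2WT (0.39, adjusted p = 0.016), a call lost without Vectors A (adjusted p = 0.11), Vectors B (0.053) or any of FOXL2WT A (0.055), B (0.058) and C (0.051). AMH, the ligand of AMHR2, had 14 to 43 counts and was not called, and FSHB was at 0.

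Genes that glucocorticoids are known to regulate were counted next. Of 15 tested, FOXL2C134W against FOXL2WT called 0 higher and 6 lower, with a median log2 fold change of -0.07 beside -0.01 over all genes. Of all genes 11.2% were called there, 7.13% higher and 4.12% lower. The 6 were CDKN1C, ERRFI1, GLUL, SGK1, TSC22D3 and TXNIP. ERRFI1 and SGK1 kept the call without 2 of 6 libraries, TSC22D3 without 3, and CDKN1C and TXNIP without any. FOXL2C134W against FOXL2WT + FOXO1 called 0 of the 15 (3.87% of all genes). ERRFI1, GLUL and SGK1 were named after their values were seen. CDKN1C, a cell cycle inhibitor, fell from 2.12 ± 0.48 to 0.991 ± 0.10 CPM (-1.09, SE 0.22, adjusted p = 0.0034), and TXNIP, an inhibitor of thioredoxin, from 187 ± 9.2 to 152 ± 9.1 CPM (-0.30, adjusted p = 0.00068). In Vectors CDKN1C stood between them at 1.53 ± 0.16 CPM, and neither FOXL2WT nor FOXL2C134W was called against Vectors for it. TSC22D3, the leucine zipper protein induced by glucocorticoids, was at 23.7 ± 0.49 CPM in FOXL2WT and 16.1 ± 1.4 CPM in FOXL2C134W + FOXO1 (-0.56, SE 0.088, adjusted p = 0.0030). It was at 18.1 ± 1.6 CPM in Vectors and 18.4 ± 2.0 CPM in FOXL2C134W. Compared with Vectors, SGK1 was called higher in FOXL2WT (0.33) and in FOXL2C134W (0.17), whereas GLUL (-0.15) and TXNIP (-0.45) were called lower in FOXL2C134W. TXNIP was also lower in FOXL2WT + FOXO1 (-0.39, at 158 ± 6.3 CPM). Against Vectors the list split, with 4 higher and 1 lower in FOXL2WT (6.07% of all genes called) and 2 higher and 3 lower in FOXL2C134W (14.7%), and ANGPTL4 was higher in FOXL2C134W + FOXO1 (0.71, SE 0.098, adjusted p = 0.00013). Several of these genes, TXNIP among them, also answer to forkhead factors and nutrients. NR3C1 itself was not called in any of these comparisons.

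Estrogen-responsive genes were tested although ESR1 and ESR2 were at the floor. Of 13 tested, FOXL2C134W against Vectors called 2 higher and 2 lower, where 14.7% of all genes were called (7.48% higher and 7.24% lower). STC2, a secreted glycoprotein, rose from 564 ± 24 to 772 ± 25 CPM (log2 fold change 0.45, SE 0.042, edgeR adjusted p = 1.5e-06), and MYC from 87.9 ± 2.3 to 111 ± 6.4 CPM (0.34, adjusted p = 7.4e-05). IGFBP4 and KRT19 were lower at -0.14 (adjusted p = 0.020) and -0.17 (adjusted p = 0.036), and each kept its call without FOXL2C134W A alone among the 6 libraries. Both were named after their values were seen. STC2 and MYC were also higher than in Vectors in FOXL2WT (0.40 and 0.31), FOXL2WT + FOXO1 (0.32 and 0.28) and FOXL2C134W + FOXO1 (0.34 and 0.30). XBP1, a factor of the unfolded protein response, was at 284 ± 6.4 CPM in FOXL2WT and 234 ± 7.7 CPM in FOXL2C134W (-0.27, SE 0.039, adjusted p = 0.00023). It was at 243 ± 4.5 CPM in Vectors. Against Vectors it was called higher in FOXL2WT (0.22, edgeR adjusted p = 0.0023) and was not called in FOXL2C134W. CTSD was lower in FOXL2C134W + FOXO1 than in Vectors (-0.23, adjusted p = 0.0020). These genes have many regulators, and the list's name is not a measure of estrogen action.

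The other nuclear and hormone receptors gave 44 genes, of which 33 were tested and 6 were at the floor, LHCGR and PRLR among them. FOXL2C134W against Vectors called 4 higher and 0 lower, or 12.1% of the list beside 14.7% of all genes (7.48% higher and 7.24% lower). They were PPARD at 0.28 (SE 0.059, edgeR adjusted p = 0.0032), IGF1R at 0.20 (adjusted p = 0.014), NR2C2 at 0.18 (adjusted p = 0.026) and VDR at 0.29 (adjusted p = 0.040). PPARD, a fatty acid sensing receptor, was at 26.6 ± 0.46 CPM in Vectors and 32.3 ± 1.6 CPM in FOXL2C134W, and its call held without any of the 6 libraries. The calls on IGF1R, NR2C2 and VDR held without 3, 2 and 2 of 6 libraries. That on VDR held in 2 of 7 other settings and was lost in DESeq2 (adjusted p = 0.11), with length offsets (0.26), with genes of at least 1 count (0.11), with the replicate block (0.054) and with only the compared conditions (0.085). With length offsets in DESeq2, IGF1R, the insulin-like growth factor receptor, read -0.09 (adjusted p = 0.85). NR2C2 was named after its values were seen. VDR, the vitamin D receptor, was at 9.50 ± 0.84 CPM in FOXL2C134W and 7.03 ± 0.25 CPM with FOXO1 added (-0.43, adjusted p = 0.033), a call lost without FOXL2C134W B (adjusted p = 0.15), FOXL2C134W C (0.20), FOXL2C134W + FOXO1 A (0.18) or FOXL2C134W + FOXO1 C (0.13). It held in 4 of 7 other settings and was lost with length offsets (0.68), the replicate block (0.053) and only the compared conditions (0.14). PGR, the progesterone receptor, had 104 to 227 counts and was called in no comparison.

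Genes of the response to FSH were counted although FSHR was not detected. Of 15 besides FSHR, 9 were tested, and the 10 pairwise comparisons gave 2 calls, 1 in FOXL2WT against Vectors (6.07% of all genes called) and 1 in FOXL2WT + FOXO1 against Vectors (3.78%). These counts are too small to set the list apart from all genes. HSD17B1, which forms estradiol, was higher in FOXL2WT than in Vectors (0.63, adjusted p = 0.026), and CYP11A1, the first enzyme of steroid synthesis, was lower in FOXL2WT + FOXO1 (-0.93, adjusted p = 0.042). Both were named after their values were seen. HSD17B1 was lost without Vectors A (adjusted p = 0.15), FOXL2WT A (0.085) or FOXL2WT B (0.12), and of the 6 left-out libraries CYP11A1 kept its call without Vectors C alone. CYP11A1 also lost it with length offsets in DESeq2 (adjusted p = 0.20), the replicate block (0.060) and only the compared conditions (0.074), and kept it in the other 3 settings run. CYP19A1, the aromatase, had 0 to 4 counts.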

How the data were processed

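RNA was sequenced from 15 samples of HGrC1 cells with a stranded mRNA kit, as 75-bp single-end reads. The authors quantified transcripts with salmon 1.1.0 on hg38 and deposited a gene table of estimated counts, rounded to whole numbers, and per-sample tables of TPM, reads and lengths per transcript. The annotation release and the strand setting are not given in the sources used here. Samples were grouped by their labels. The estimated counts were tested with edgeR 4.0.16 (quasi-likelihood, TMM, filterByExpr) over all 15 libraries in R 4.3.3, with Benjamini-Hochberg adjustment over 13868 genes and a threshold of 0.05. Alternatives were DESeq2 1.42.0, its size factors or transcript length offsets, other filters, a replicate block, only the compared conditions and leaving out each library. The procedure was tested on simulated data. The named genes were the 10 members, the 2 genes most correlated with each member called over the 5 conditions, and of each list at most 4 genes called over the 5 conditions with the largest change. The members and lists were chosen with earlier results of these data known. Of 101 member transcripts, 99 were found in GENCODE 44. Replicate libraries differed by more than sampling noise (chi-square per degree of freedom 2.21 to 8.65), so none repeated the counts of another. This does not show that they came from separate transfections. Results on a few of the listed genes are not reported here.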

Additional observations from a re-analysis of the deposited data

Results flagged for a closer look

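The change on adding FOXO1 differed between the FOXL2WT and FOXL2C134W backgrounds for XBP1, a factor of the unfolded protein response, by the interaction test (log2 difference 0.24, SE 0.056, edgeR adjusted p = 0.042). FOXO1 RNA averaged 117 CPM in FOXL2WT + FOXO1 and 43.2 CPM in FOXL2C134W + FOXO1. The FOXL2 form cannot be told apart here from the amounts of FOXO1, FOXL2 and SMAD3. XBP1 was at 284 ± 6.4 CPM (SD, n = 3) in FOXL2WT and 255 ± 11 CPM with FOXO1, against 234 ± 7.7 CPM in FOXL2C134W and 249 ± 5.6 CPM with FOXO1. XBP1 stood at 243 ± 4.5 CPM in Vectors. It kept the call without FOXL2C134W A or FOXL2WT + FOXO1 C alone among the 12 libraries (adjusted p from 0.052 to 0.14 without each of the others) and lost it with the replicate block (adjusted p = 0.061) and with only the compared conditions (0.078).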

How the results depend on the processing

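NR2F2 kept its 3 strongest calls in every alternative run. With transcript length offsets the members called changed from 2 to 1 in FOXL2C134W against Vectors, from 1 to 2 in FOXL2C134W + FOXO1 against Vectors (GATA4 added), from 1 to 0 in FOXL2C134W against FOXL2WT + FOXO1 (also with only the compared conditions) and from 0 to 1 in the interaction. FOXL2C134W against FOXL2WT went from 1 to 2 with DESeq2, DESeq2 size factors or at least 10 counts in every library, and FOXL2C134W + FOXO1 against FOXL2WT from 0 to 1 with DESeq2 or the filter of 1 count. Leaving out a library gave 0 to 1 in FOXL2WT against Vectors, 1 to 2 in FOXL2C134W against FOXL2WT, 0 to 1 in FOXL2C134W against FOXL2WT + FOXO1 and 1 to 3 for any difference. Signs that turned belonged to values that passed no test, except IGF1R. With length offsets they were GATA6 in FOXL2WT (0.046) and FOXL2C134W + FOXO1 (0.021) against Vectors and in FOXL2C134W + FOXO1 against FOXL2WT + FOXO1 (0.027, and 0.0041 with the filter of 1 count), WT1 in FOXL2C134W against Vectors (0.11) and in FOXL2C134W + FOXO1 against FOXL2C134W (-0.080), GATA4 in FOXL2C134W against FOXL2WT + FOXO1 (-0.040), and IGF1R in FOXL2C134W against Vectors (-0.094). Without a library, ranges crossed 0 for GATA4 in FOXL2C134W against Vectors (-0.049 to 0.0042), for KITLG in FOXL2WT + FOXO1 against FOXL2WT (-0.064 to 0.041), and for GATA6 in FOXL2WT against Vectors (-0.024 to 0.013), FOXL2C134W + FOXO1 against FOXL2C134W (-0.024 to 0.019) and FOXL2WT + FOXO1 (-0.024 to 0.016), and FOXL2C134W against FOXL2WT + FOXO1 (-0.032 to 0.023). They crossed 0 for NR3C1 in FOXL2WT + FOXO1 against FOXL2WT (-0.069 to 0.0038), FOXL2C134W + FOXO1 against FOXL2WT (-0.036 to 0.048) and FOXL2WT + FOXO1 (-0.0032 to 0.081), and FOXL2C134W against FOXL2WT + FOXO1 (-0.057 to 0.011). They crossed 0 for WT1 in FOXL2C134W (-0.049 to 0.028) and FOXL2C134W + FOXO1 (-0.048 to 0.052) against Vectors, FOXL2WT + FOXO1 against FOXL2WT (-0.015 to 0.11), FOXL2C134W + FOXO1 against FOXL2C134W (-0.045 to 0.061) and the interaction (-0.097 to 0.030). The replicate block changed no count of members called. The letters did not pair the libraries, since same-letter correlations ran from -0.164 to 0.166 and 2 of 30 passed 0.1. The causes were not tested.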
